A study of Homo sapiens with 132 samples.

Results

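Krüppel-like factors (KLFs) are zinc finger transcription factors. The 10 KLF genes described here are KLF2, KLF3, KLF4, KLF5, KLF6, KLF7, KLF9, KLF10, KLF11 and KLF13, taken as the rows of the count files whose Ensembl identifier carries that symbol. They are 10 of 65217 identifiers. All 10 passed the filter on low counts in each of the 4 cell lines, and between 0.0370% and 0.126% of the counts of a library fell on them.

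KLF proteins bind GC-rich and CACCC-containing DNA through zinc fingers at the carboxyl end, and their amino-terminal parts recruit activators or repressors. KLF2, KLF4, KLF5, KLF6 and KLF7 are mainly known as activators, KLF3 recruits the CtBP corepressors, and KLF9, KLF10, KLF11 and KLF13 recruit the Sin3 corepressor complex. In the gut epithelium KLF4 is associated with differentiated cells and KLF5 with proliferating cells, and several KLF genes are early targets of growth factor signalling.

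The libraries came from 4 established lines derived from metastases of gastric carcinomas, MKN1, MKN7, NCI-N87 and Hs746T. Cells of each line were left untreated or were treated with trastuzumab (5 µg/ml), a HER2 antibody, with afatinib (0.5 µM), an irreversible inhibitor of the EGFR family kinases, or with trastuzumab + afatinib. MKN1 and Hs746T cells were also treated with EGF (5 ng/ml), with cetuximab (1 µg/ml), an EGFR antibody, or with EGF + cetuximab. Each condition was sampled after 4 h and 24 h in 3 replicates, which gave 44 groups. Afatinib is a small molecule, while the other agents are proteins. The control cells were untreated and received no solvent. The paper names DMSO as the solvent of afatinib, and afatinib and its solvent cannot be told apart in these libraries. All cells were grown with serum, Hs746T in DMEM and the other lines in RPMI, and each line is 1 model of its tumor. The labels do not say whether the replicates were separate cultures, so that p-values measure the spread between these libraries. In bulk RNA a lower level can come from fewer cells that express a gene or from less RNA per cell, and these cannot be told apart.

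Total counts ranged from 25832557 to 69434151 per library, with a median of 50725775.5. No pair of libraries within a group agreed within sampling noise. Levels are given as CPM, counts scaled by TMM-adjusted library sizes. The library sizes of the values per library were adjusted within each line, and those of the markers and of the levels per length over all 4 lines. Of the epithelial markers, CDH1 (E-cadherin) had a median of 243 and 256 CPM in MKN7 and NCI-N87 cells. In MKN1 and Hs746T cells its median was 2.0 and 0.785 CPM, although the keratin KRT8 was present at 11067 and 342 CPM. EPCAM split the lines in the same way, with medians of 25.1 and 35.5 CPM in MKN1 and Hs746T against 626 and 496 CPM in MKN7 and NCI-N87. CLDN4 did not, at 308 CPM in Hs746T, 159 in MKN7, 667 in NCI-N87 and 7.44 CPM in MKN1. KRT19 was 4166 CPM in MKN1, 26.4 in Hs746T, 1142 in MKN7 and 4617 CPM in NCI-N87. KRT18 was lowest in Hs746T, at 150 CPM. Of the mesenchymal markers, VIM (vimentin) had a median of 559 CPM in MKN1 and 1595 CPM in Hs746T cells, against 3.74 and 4.17 CPM in MKN7 and NCI-N87. Median CDH2 (N-cadherin) was 79.8 CPM in Hs746T and at most 0.657 CPM in the other lines, while FN1 (fibronectin) was between 237 and 2089 CPM in all 4. The leukocyte markers CD3E and PTPRC did not exceed 0.104 and 0.664 CPM in any library. Of the endothelial markers, PECAM1 had a median of 155 CPM in Hs746T, 9.82 CPM in MKN1 and at most 0.583 CPM in the other lines, while CDH5 and VWF did not exceed 0.793 and 2.97 CPM in any library. The cell line and the medium cannot be told apart for Hs746T.

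Positions are given in GRCh38 with the gene models of GENCODE 29. KLF2 spans chr19:16324817-16327874, KLF4 spans chr9:107484852-107490482, KLF6 spans chr10:3775996-3785281 and KLF9 spans chr9:70384597-70414624. KLF5 spans chr13:73054976-73077542 and KLF7 spans chr2:207074137-207167267. KLF3 spans chr4:38664196-38701042, KLF11 spans chr2:10042849-10054836 and KLF13 spans chr15:31326855-31435665. All 10 members are protein-coding, and their exons together measure between 2018 bases (KLF2) and 9409 bases (KLF13).

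The sequences just upstream of KLF2, KLF4 and KLF6 are shown because these genes fell with afatinib at 4 h in both MKN1 and MKN7 cells. KLF10 also fell in both at 4 h, but no window of it was used. The sequence of KLF9 is shown because this gene passed as higher with afatinib at 24 h in 3 lines, in MKN1 with an FDR of 0.0473. They were read from RefSeq windows of the build GRCh38.p14 and are written 5′ to 3′ on the strand of the gene, without bases that a GENCODE transcript of the gene holds in an exon. Capitals mark the GC box CCGCCC on either strand, the CACCC motif on either strand and, in KLF2, a MEF2 box.
KLF2 (chr19:16324576-16324816, plus strand): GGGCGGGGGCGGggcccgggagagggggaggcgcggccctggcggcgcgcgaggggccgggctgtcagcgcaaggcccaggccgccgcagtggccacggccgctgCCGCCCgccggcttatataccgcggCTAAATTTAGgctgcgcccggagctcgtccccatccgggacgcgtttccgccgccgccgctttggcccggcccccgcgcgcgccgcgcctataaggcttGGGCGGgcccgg
KLF4 (chr9:107489770-107490019, minus strand): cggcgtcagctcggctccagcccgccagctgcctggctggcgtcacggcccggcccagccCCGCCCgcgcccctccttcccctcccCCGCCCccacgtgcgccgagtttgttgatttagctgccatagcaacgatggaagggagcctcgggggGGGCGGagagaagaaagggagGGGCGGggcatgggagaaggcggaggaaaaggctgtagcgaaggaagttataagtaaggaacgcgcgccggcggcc
KLF6 (chr10:3785282-3785459, minus strand): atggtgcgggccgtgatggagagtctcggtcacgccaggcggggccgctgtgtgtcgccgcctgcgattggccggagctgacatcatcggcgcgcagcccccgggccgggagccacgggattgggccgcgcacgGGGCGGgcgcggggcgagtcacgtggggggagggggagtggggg
KLF9 (chr9:70414658-70414907, minus strand): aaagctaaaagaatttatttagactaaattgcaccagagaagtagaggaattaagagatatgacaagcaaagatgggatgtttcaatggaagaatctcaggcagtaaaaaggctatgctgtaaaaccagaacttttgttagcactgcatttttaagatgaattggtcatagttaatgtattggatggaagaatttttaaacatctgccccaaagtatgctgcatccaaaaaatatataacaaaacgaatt

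RefSeq windows were present for 8 of the genes, as 13 windows because KLF5, KLF7 and KLF11 have several starts. The GC box, CCGCCC read on both strands in the 250 bases before the start, was found for 7 of the 8 genes and in 8 of 13 windows, against 42.6% of all 35116 windows. CACCC on either strand, the core of the sites that KLF proteins bind, was found for 4 of the 8 genes and in 6 of 13 windows, against 54.7% of all windows. KLF2 alone of the 8 genes had a MEF2 box, 120 bases before the start, a motif found in 0.515% of all windows. A CArG box, the motif of serum response factor, was found in 1 window of KLF7, against 1.16% of all windows. The median GC content was 70.8% in these windows and 58.0% in all windows, while the KLF9 window had 32.4% and no GC box or CACCC. The motif matches describe letters in these windows.

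The levels of the KLF genes in untreated cells were compared per length, as CPM per kb of exon, over the 6 untreated libraries of each line. KLF5 was highest in NCI-N87 cells at 107 ± 10.8 (SD, n = 6) CPM per kb and in MKN7 cells at 53.1 ± 4.64. KLF4 was highest in MKN1 cells at 41.7 ± 2.95 CPM per kb. In Hs746T cells KLF6 (30.7 ± 4.49), KLF2 (29 ± 1.95) and KLF5 (28.1 ± 3.26 CPM per kb) stood together at the top, and the ranges of neighbours in this order overlapped. KLF7 was lowest in NCI-N87 at 0.748 ± 0.130 and in MKN1 at 1.25 ± 0.251 CPM per kb. KLF9 was lowest in MKN7 at 0.390 ± 0.0372, and KLF11 in Hs746T at 1.75 ± 0.237 CPM per kb. The ranges of the lowest gene and its neighbour overlapped in MKN1 (KLF7 and KLF9) and Hs746T (KLF11 and KLF13), and they were apart in NCI-N87 and MKN7.

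**Figure D1:**
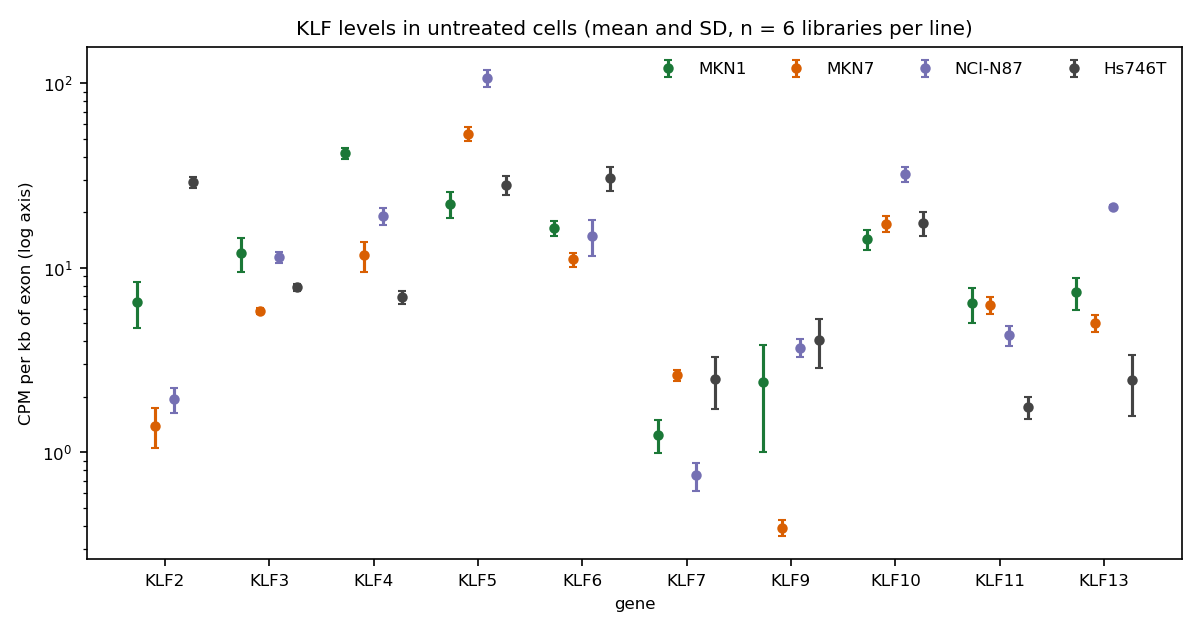
Levels of the 10 KLF genes in untreated cells as CPM per kb of exon on a log axis, with the mean and SD of 6 libraries per cell line (4 h and 24 h together). KLF5 in NCI-N87 stands at 107 CPM per kb and KLF9 in MKN7 at 0.390, and KLF2 is at 29 in Hs746T and between 1.40 and 6.51 in the other lines.

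KLF genes differed between untreated lines in 54 of 60 comparisons of a gene between a pair of lines (edgeR quasi-likelihood test, FDR below 0.05). All 10 differed between NCI-N87 and MKN7 (73.3% of all genes tested) and between MKN1 and Hs746T (76.5%), and 9 differed between NCI-N87 and Hs746T (76.3%) and between MKN7 and MKN1 (71.9%). For NCI-N87 and MKN1 (75.8%) and for MKN7 and Hs746T (74.3%) 8 differed. Most genes of any kind thus differed between lines. KLF2, known for its role in quiescent endothelial and T cells, had the largest difference. It was lower in NCI-N87 than in Hs746T by a log2FC of -3.92 ± 0.13 (SE) and lower in MKN7 than in Hs746T by -4.39 ± 0.13. The endothelial marker PECAM1 was also highest in Hs746T, while CDH5 and VWF were near 0, and the part of PECAM1-expressing cells in the KLF2 level was not tested. KLF9, a glucocorticoid-induced repressor, was higher in NCI-N87 than in MKN7 by a log2FC of 3.24 ± 0.11. KLF13 was higher in NCI-N87 than in Hs746T by 3.12 ± 0.20, and KLF4 was higher in MKN1 than in Hs746T by 2.59 ± 0.08. KLF5 was higher in NCI-N87 than in MKN1 by 2.27 ± 0.09. The FDR of these 6 differences was at most 1.3e-27. The 6 comparisons that did not pass were KLF3 and KLF6 between NCI-N87 and MKN1, KLF9 between NCI-N87 and Hs746T, KLF11 between MKN7 and MKN1, and KLF7 and KLF10 between MKN7 and Hs746T.

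In Hs746T cells the libraries labelled replicate 1 differed from replicates 2 and 3 for KLF6, KLF7 and KLF13. KLF7 was between 27.3 and 38.8 CPM in replicate 1 and between 14.1 and 20.8 CPM in the other replicates over all 14 Hs746T groups. KLF13 was between 28.7 and 37.4 CPM in replicate 1 and between 14.5 and 21.1 CPM in the others. KLF6 was between 187 and 227 CPM in replicate 1 and between 144 and 185 CPM in the others. Replicate 1 was thus the highest of its group in 14 of 14 groups for each of these genes, with a median ratio to the mean of the other replicates of 1.71 for KLF7, 1.82 for KLF13 and 1.29 for KLF6. Shifts by replicate number were not particular to these genes or to Hs746T. In MKN1 replicate 1 was the highest for KLF7 in 14 of 14 groups (median ratio 1.36), and replicate 3 for KLF3 in 14 of 14 (1.19). KLF13 was lowest in replicate 2 in all 14 MKN1 groups (0.811). KLF5 of MKN7 was highest in replicate 1 and KLF4 of NCI-N87 lowest in replicate 2, each in 8 of 8 groups. KLF5 of Hs746T was lowest in replicate 1 in 13 of 14 groups (0.822). The cause was not tested. KLF13 remained higher in NCI-N87 than in Hs746T without replicate 1, with a log2FC of 3.46, and KLF7 remained lower, with -1.62.

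Untreated cells at 24 h were compared with those at 4 h, and time in culture and time since the last change of medium cannot be told apart here. Between the untreated cells at 24 h and 4 h, 3 of 10 KLF genes changed in MKN1, where 34.1% of all genes tested changed. KLF9 was 6.92, 7.15 and 6.18 CPM in replicates 1, 2 and 3 of untreated MKN1 at 4 h and 24.2, 15.5 and 14.6 CPM at 24 h, without overlap (log2FC 1.43 ± 0.17, FDR = 8.8e-08). KLF2 fell by 0.60 ± 0.15 on the log2 scale (FDR = 0.00173), and KLF11, a TGFβ-induced repressor, rose by 0.41 ± 0.12 (FDR = 0.00535). In Hs746T 1.48% of all genes changed and 1 of 10 KLF genes did. This was again KLF9, at 15.7, 15.2 and 14.9 CPM at 4 h and 24.8, 29.4 and 27.2 CPM at 24 h (log2FC 0.83 ± 0.10, FDR = 1.24e-05).

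In MKN7 cells KLF4 (log2FC -0.42 ± 0.14, FDR = 0.0448) and KLF13 (-0.31 ± 0.08, FDR = 0.0121) were lower at 24 h than at 4 h, among 16.4% of all genes. In NCI-N87 cells 0 of 10 KLF genes passed with edgeR, where 0.267% of all genes did. Of the 10, 3 had an unadjusted p below 0.05 in edgeR, and DESeq2 called 1. Of 19078 genes tested there, 1793 had an unadjusted p below 0.05 in edgeR. In a fit with the replicate number as a block shared by both times, KLF3 (FDR = 7.7e-05) and KLF13 (0.000265) were also called in MKN1, KLF10 in Hs746T (0.0111), KLF2 in MKN7 (0.0460) and KLF6 in NCI-N87 (0.0139). That fit called 47.2% of all genes in MKN1, 10.2% in Hs746T, 30.9% in MKN7 and 4.32% in NCI-N87. Without replicate 3 the KLF9 call in Hs746T was lost (FDR = 0.0719), and the MKN7 count was 0 without replicate 1 or 2 and 1 without replicate 3. The MKN1 count was 2, 5 and 3 without replicates 1, 2 and 3. Library size alone, without TMM, moved the median of all genes in MKN1 by 0.17 log2 in this comparison.

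EGF treatment of MKN1 cells asked which KLF genes follow activation of the EGF receptor. After 4 h 5 of 10 KLF genes were higher and 0 were lower, where 6.82% of all genes tested changed. The genes were KLF2, KLF5, KLF6, KLF7 and KLF10, and the median log2FC of the 10 genes was 0.41 against 0.00 over all genes. KLF6, an immediate early gene in many cell types, responded most clearly. It was 113, 101 and 105 CPM in untreated cells and 266, 239 and 242 CPM with EGF (log2FC 1.23 ± 0.07, FDR = 1.23e-13). KLF7, which is known for its role in neuronal development, was 13.4, 11.3 and 11.3 CPM in untreated cells and 32.6, 24.1 and 23.5 CPM with EGF (log2FC 1.15 ± 0.23, FDR = 0.000738). All EGF libraries were above all untreated libraries for both genes.

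KLF10, also called TGFβ-inducible early gene 1, was 61.6, 63.1 and 59.8 CPM in untreated MKN1 cells and 103, 99.5 and 92.6 CPM after 4 h with EGF (log2FC 0.68 ± 0.12, FDR = 0.000113). KLF5 was 90.4, 79.5 and 103 CPM in untreated cells and 145, 128 and 143 CPM with EGF (log2FC 0.61 ± 0.13, FDR = 0.00136). KLF2 was 16.4, 14.5 and 17.1 CPM in untreated cells and 25.2, 23.9 and 23.5 CPM with EGF (log2FC 0.60 ± 0.15, FDR = 0.00742). The groups did not overlap for these 3 genes either. The share of all genes whose groups did not overlap was not counted, and the genes named had passed the FDR in the same libraries. A fit with the replicate block also called KLF11 (log2FC -0.27, FDR = 0.00175) and KLF13 (0.23, FDR = 0.0062), and 17% of all genes. Without replicate 1, KLF2 and KLF5 did not pass (FDR = 0.122 and 0.172), which left 3 higher, where 2.16% of all genes passed. Without replicate 2, KLF2 and KLF7 did not pass (FDR = 0.150 and 0.0505), and KLF11 passed as lower (log2FC -0.35, FDR = 0.0164), among 5.43% of all genes. KLF11 also passed as lower with library size alone (log2FC -0.39, FDR = 0.0442), beside the 5 higher genes. The library-size scaling lowered the median of all genes by 0.11 here.

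After 24 h with EGF 5 KLF genes of MKN1 were higher and 1 was lower, where 35.8% of all genes changed, so that the 6 of 10 stood in a comparison with many changes. KLF2 was 8.13, 9.13 and 14.3 CPM in untreated cells and 15.8, 17.6 and 18 CPM with EGF (log2FC 0.70 ± 0.15, FDR = 0.000335). KLF5 (0.40 ± 0.13), KLF6 (0.36 ± 0.07), KLF10 (0.34 ± 0.12) and KLF4 (0.27 ± 0.08) rose by smaller amounts. KLF9 fell, from 24.2, 15.5 and 14.6 CPM to 12.7, 8.82 and 10.8 CPM (log2FC -0.75 ± 0.17, FDR = 0.000652). KLF7 was 16.6, 11.8 and 13.4 CPM with EGF at this time and did not pass (log2FC 0.30, FDR = 0.313). The change of KLF6 with EGF was smaller at 24 h than at 4 h by 0.87 ± 0.10 log2 (FDR = 1.68e-06), the only KLF gene for which the edgeR test of the difference between times passed, among 9.46% of all genes.

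Scaling to library size alone moved the median of all genes by -0.20 in the 24 h comparison, and KLF4, KLF5, KLF6 and KLF10 then lost their call, with log2FC between 0.07 and 0.21. In the fit of the compared groups alone KLF4, KLF5 and KLF10 lost it, where 25.6% of all genes passed. The count at 24 h was 3 without replicate 1 and 3 without replicate 2, where 17.8% and 29.2% of all genes passed. KLF3 (log2FC -0.15, FDR = 0.0396), KLF7 (0.33, FDR = 0.00794) and KLF13 (0.21, FDR = 0.00374) were called at 24 h with the replicate block, among 51.1% of all genes. The block also called a difference between times for KLF4, KLF7, KLF9 and KLF11, among 26.3%.

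In Hs746T cells EGF changed 0 of 10 KLF genes at either time with edgeR or DESeq2, and 0.00% of all genes. No member had an unadjusted p below 0.05 in the edgeR fit without the block. The log2FC of the 10 genes lay between -0.03 and 0.11 at 4 h and between -0.10 and 0.06 at 24 h.

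**Figure D2:**
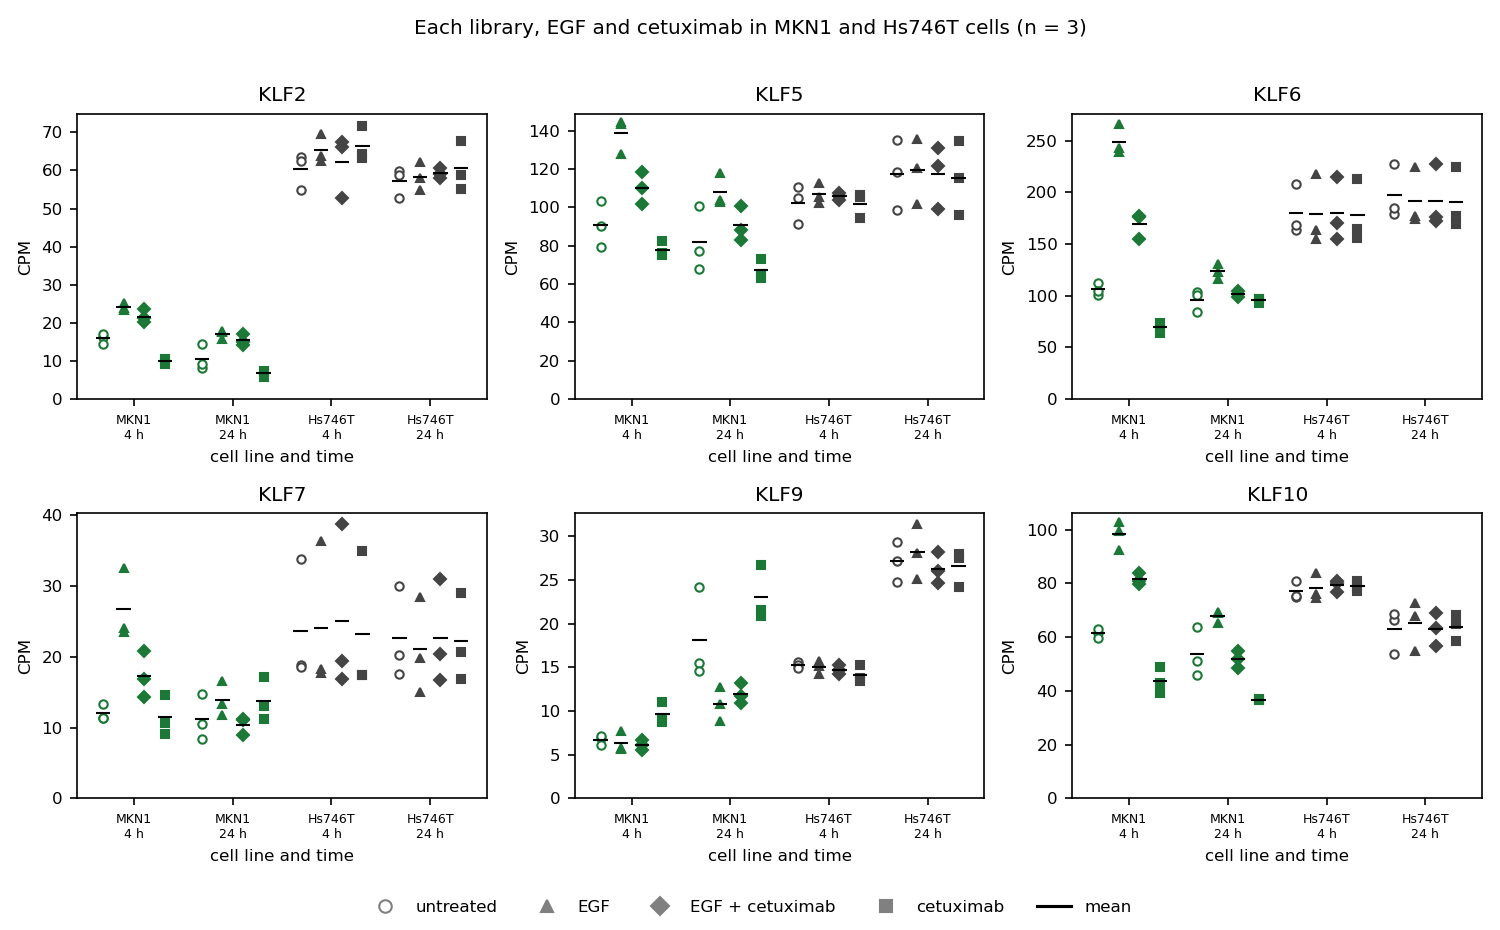
CPM in each library (points; the line is the mean, n = 3) of 6 KLF genes in untreated, EGF, EGF + cetuximab and cetuximab cells of MKN1 and Hs746T at 4 h and 24 h. In MKN1 the 3 EGF libraries of KLF6 at 4 h sit between 239 and 266 CPM, above untreated (101 to 113) and cetuximab (64.3 to 74.1), while the Hs746T groups overlap.

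Cetuximab asked for the reverse in MKN1 cells, the effect of blocking ligand binding under serum. After 4 h 4 of 10 KLF genes were lower and 0 were higher, where 1.43% of all genes changed. KLF6 was 69.5, 74.1 and 64.3 CPM with cetuximab, below the 101 to 113 CPM of untreated cells (log2FC -0.62 ± 0.07, FDR = 4.2e-06). KLF2 was 9.17, 10.5 and 10.3 CPM (log2FC -0.68 ± 0.15, FDR = 0.00938), and KLF10 was 42.9, 48.8 and 39.2 CPM (log2FC -0.50 ± 0.12, FDR = 0.0181). KLF4 was 124, 127 and 136 CPM with cetuximab and 156, 154 and 169 CPM in untreated cells (log2FC -0.31 ± 0.08, FDR = 0.034). None of the 4 genes had overlapping groups, and the share of all genes without overlap was not counted. KLF4 and KLF10 lost their call in the fit of the compared groups alone (FDR = 0.218 and 0.0652) and with library size alone (0.226 and 0.0531). Of all genes, 0.671% and 1.2% passed in these fits. The 4 h count was 1 without replicate 1 or 2 and 3 without replicate 3. Of all genes, 0.417%, 0.869% and 0.826% passed without replicates 1, 2 and 3.

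After 24 h with cetuximab KLF2 (log2FC -0.64 ± 0.15, FDR = 0.00522) and KLF10 (-0.54 ± 0.12, FDR = 0.00259) were lower, where 10.8% of all genes changed. KLF10 was 36.7, 37.1 and 36.6 CPM with cetuximab and 51.1, 45.8 and 63.8 CPM in untreated cells. KLF6 was 96.9, 93.1 and 96.5 CPM with cetuximab at 24 h, within the range of the untreated cells, and its effect differed from that at 4 h by 0.60 ± 0.10 log2 (FDR = 0.00501), among 0.192% of all genes. The count at 24 h was 1 without replicate 2 or 3 and 3 without replicate 1. Of all genes, 10.9%, 1.32% and 5.47% passed without replicates 2, 3 and 1. The difference between times for KLF6 was lost without replicate 1 or 3 and in the fit of the compared groups alone (FDR = 0.197). When the replicate block was fitted, 6 of 10 genes passed at 4 h and 5 of 10 at 24 h, where 7.5% and 30.4% of all genes did. The genes added by the block were KLF5 (lower) and KLF9 (higher) at both times and KLF7 (higher) at 24 h. The block called differences between times for KLF3 and KLF4 as well, among 6.09% of all genes.

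When cetuximab was given together with EGF, KLF6 at 4 h was 176, 155 and 177 CPM in MKN1, between the cells with EGF alone and the untreated cells. It was lower than with EGF (log2FC -0.56 ± 0.07, FDR = 2.4e-05) and higher than without treatment (0.67 ± 0.07, FDR = 1.23e-06), a comparison in which 0.717% of all genes passed. At 24 h KLF2 was higher (0.55) and KLF9 lower (-0.60) than without treatment, among 18.6%. KLF6 was the only KLF gene that passed against EGF at 4 h, among 0.701% of all genes. It lost that call in the fit of the compared groups alone (FDR = 0.0938) and without replicate 1 (FDR = 0.063), where 0.0751% and 0.0904% of all genes passed. At 24 h 0 of 10 genes passed against EGF with edgeR, 3 had an unadjusted p below 0.05, and DESeq2 called 2. Of all genes, 0.646% passed in the edgeR fit and 1.46% with DESeq2. Of 19815 genes in the edgeR fit, 2046 had an unadjusted p below 0.05. Under the replicate block KLF5, KLF6 and KLF7 were lower than with EGF at 4 h, and KLF5, KLF6, KLF7 and KLF10 at 24 h, where 3.99% and 7.22% of all genes passed. In Hs746T cells cetuximab, with or without EGF, changed 0 of 10 KLF genes at either time with edgeR, DESeq2 or the replicate block, where 0.00% of all genes passed in edgeR and no member had an unadjusted p below 0.05 in the fit without the block.

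Afatinib changed the KLF genes of MKN1 and MKN7 mainly downward, and those of NCI-N87 in both directions. Over 3 lines and both times 37 of 60 gene-by-comparison tests passed, 25 lower and 12 higher, and in Hs746T 0 of 20 passed with edgeR. Of all genes tested, 3.68% passed at 4 h and 25.6% at 24 h in MKN1. The shares were 22.2% and 51.6% in MKN7, 18.2% and 62.5% in NCI-N87 and 0.00% in Hs746T. KLF6 was lower in all 6 comparisons of these 3 lines. KLF2 was lower in MKN1 and MKN7 at both times and higher in NCI-N87 at 4 h. KLF11 passed in none of them.

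In MKN1 cells 4 of 10 KLF genes were lower after 4 h with afatinib, where 3.68% of all genes changed. KLF6 was 59.9, 60.2 and 59.4 CPM with afatinib and 113, 101 and 105 CPM without (log2FC -0.83 ± 0.07, FDR = 7.59e-09). KLF2 was 8.80, 8.77 and 9.29 CPM with afatinib and 16.4, 14.5 and 17.1 CPM without (log2FC -0.84 ± 0.15, FDR = 0.000463). KLF10 fell by 0.63 ± 0.12 (FDR = 0.000686) and KLF4 by 0.40 ± 0.08 on the log2 scale (FDR = 0.00110), to 111, 115 and 135 CPM. The groups did not overlap for any of the 4, and the share of all genes without overlap was not counted. KLF4 lost its call in the fit of the compared groups alone (FDR = 0.0918).

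After 24 h KLF2 (log2FC -0.80 ± 0.15), KLF5 (-0.50 ± 0.13), KLF10 (-0.47 ± 0.12) and KLF6 (-0.27 ± 0.07) were lower in MKN1, and KLF9 was higher (0.44 ± 0.16, FDR = 0.0473), among 25.6% of all genes. KLF4 was 148, 160.1 and 165 CPM and no longer lower. The effect at 24 h differed from that at 4 h for KLF4 by 0.49 ± 0.11 (FDR = 0.0105) and for KLF6 by 0.56 ± 0.10 log2 (FDR = 0.00255), among 2.77% of all genes, and both differences were lost in the fit of the compared groups alone (FDR = 0.141 and 0.0810). KLF9 at 24 h did not pass without the filter on low counts (FDR = 0.0582), without replicate 2 (0.110) or 3 (0.510) or from the compared groups alone (0.151). That fit also left KLF2 and KLF10 as the only calls at 24 h. The count at 4 h was 2 without replicate 1, and at 24 h it was 3 without replicate 1 or 3. KLF3, KLF5, KLF9 and KLF13 were also called at 4 h with the replicate block, for 8 of 10 in all where 13.2% of all genes passed, and KLF7 at 24 h, where 42.2% did. Between times the block added KLF3, among 15.7%.

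In MKN7 cells 6 of 10 KLF genes were lower and 0 were higher after 4 h with afatinib, where 22.2% of all genes changed. KLF2 was 2.95, 2.88 and 3.60 CPM in untreated cells and 1.26, 0.789 and 1.41 CPM with afatinib (log2FC -1.45 ± 0.31, FDR = 0.00153). KLF13, a regulator of the chemokine CCL5 in T cells, was 49.6, 49.6 and 52.8 CPM and fell to 36.1, 27.6 and 27.8 CPM (log2FC -0.73 ± 0.08, FDR = 1.07e-06). KLF4 was 51.9, 45.3 and 45.0 CPM without and 31.1, 26.9 and 27.0 CPM with afatinib (log2FC -0.74 ± 0.14, FDR = 0.000565). KLF7 (-0.64 ± 0.12), KLF6 (-0.64 ± 0.11) and KLF10 (-0.49 ± 0.13) were also lower. All 6 genes had groups that did not overlap, and the share of all genes without overlap was not counted.

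After 24 h KLF4 of MKN7 was 32.1, 31.6 and 42.7 CPM in untreated cells and 14.1, 12.2 and 16.6 CPM with afatinib (log2FC -1.31 ± 0.14, FDR = 2.81e-07). KLF2 (-1.12 ± 0.31), KLF6 (-0.65 ± 0.11), KLF7 (-0.47 ± 0.12) and KLF3 (-0.25 ± 0.09) were lower too, and KLF9 was higher, at 2.92, 2.73 and 2.89 CPM against 1.64, 1.97 and 1.84 CPM (log2FC 0.64 ± 0.14, FDR = 0.000723). These 6 of 10 compare with 51.6% of all genes, a similar share. KLF3 lost its call with library size alone, which moved the median of all genes by 0.11, and with the filter of at least 10 counts in every library. The effects at both times differed for KLF9 (0.80 ± 0.20, FDR = 0.00878) and KLF13 (0.58 ± 0.11, FDR = 0.00125), among 18% of all genes. Without replicate 2 neither difference passed, and without replicate 1 only 1 did. KLF5 was called higher and KLF10 and KLF13 lower at 24 h with the replicate block (63.7% of all genes), which also called differences between times for KLF3, KLF4 and KLF10 (36.7%).

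In NCI-N87 cells 8 of 10 KLF genes changed at each time, 5 higher and 3 lower, where 18.2% of all genes changed at 4 h and 62.5% at 24 h. KLF7 was the most increased. It was 8.55, 5.99 and 6.57 CPM in untreated cells and 20.9, 17.8 and 18.9 CPM after 4 h with afatinib (log2FC 1.45 ± 0.15, FDR = 6.24e-07). At 24 h it was 8.88, 6.69 and 6.16 CPM without and 31.0, 27.8 and 28.0 CPM with afatinib, a fold change of 3.99 (log2FC 2.0 ± 0.15, FDR = 3.59e-10). KLF4 was 80.3, 74.4 and 78.2 CPM without and 112, 102 and 125 CPM with afatinib at 4 h (log2FC 0.54 ± 0.13). At 24 h it was 65.1, 61.3 and 73.2 CPM without and 141, 129 and 184 CPM with afatinib (log2FC 1.19 ± 0.13, FDR = 1.1e-07).

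KLF6 of NCI-N87 was the most decreased, from 102, 131.8 and 86.6 CPM to 49.1, 48.0 and 48.0 CPM at 4 h (log2FC -1.14 ± 0.12, FDR = 3.78e-07). At 24 h it went from 83.8, 88.1 and 72.8 CPM to 26.9, 26.5 and 28.3 CPM, a fold change of 3.0 (log2FC -1.58 ± 0.12, FDR = 2.11e-10). KLF10 was 134, 141 and 132.3 CPM without and 90.2, 90.7 and 95.6 CPM with afatinib at 4 h (log2FC -0.56 ± 0.10), and it fell by 0.88 ± 0.10 at 24 h. KLF13 fell by 0.36 ± 0.06 at 4 h and by 0.66 ± 0.06 at 24 h. KLF3, a repressor with broad expression, rose from 79.6, 77.4 and 68.0 CPM to 125, 121 and 115 CPM at 4 h (log2FC 0.68 ± 0.08) and was 0.72 ± 0.08 higher at 24 h. KLF5, the most abundant member, rose by 0.42 ± 0.09 at 4 h and by 0.25 ± 0.09 at 24 h, when the groups overlapped.

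KLF2 of NCI-N87 was 4.36, 4.60 and 4.66 CPM without and 6.73, 7.05 and 6.60 CPM with afatinib at 4 h (log2FC 0.58 ± 0.14, FDR = 0.00627), and 3.13, 2.89 and 4.2 CPM at 24 h, when the groups overlapped. KLF9 was 0.83 ± 0.12 log2 higher at 24 h (FDR = 5.43e-06) and did not pass at 4 h. The effect changed between the times for KLF2 (-0.62 ± 0.21), KLF4 (0.64 ± 0.19), KLF6 (-0.44 ± 0.16), KLF7 (0.55 ± 0.21), KLF9 (0.65 ± 0.17) and KLF13 (-0.30 ± 0.09), among 35.8% of all genes. Only 2 of these 6 passed without replicate 1, and 3 without replicate 2 or 3. Library size alone moved the median of all genes by 0.26 at 24 h and by 0.19 in the difference between times, and the differences of KLF2, KLF6 and KLF13 were lost, as they were without the filter on low counts. The replicate block added KLF11 at 24 h (log2FC -0.20, FDR = 0.0099), among 72.1% of all genes, and KLF10 between times (FDR = 0.00113), among 50.9%.

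**Figure D3:**
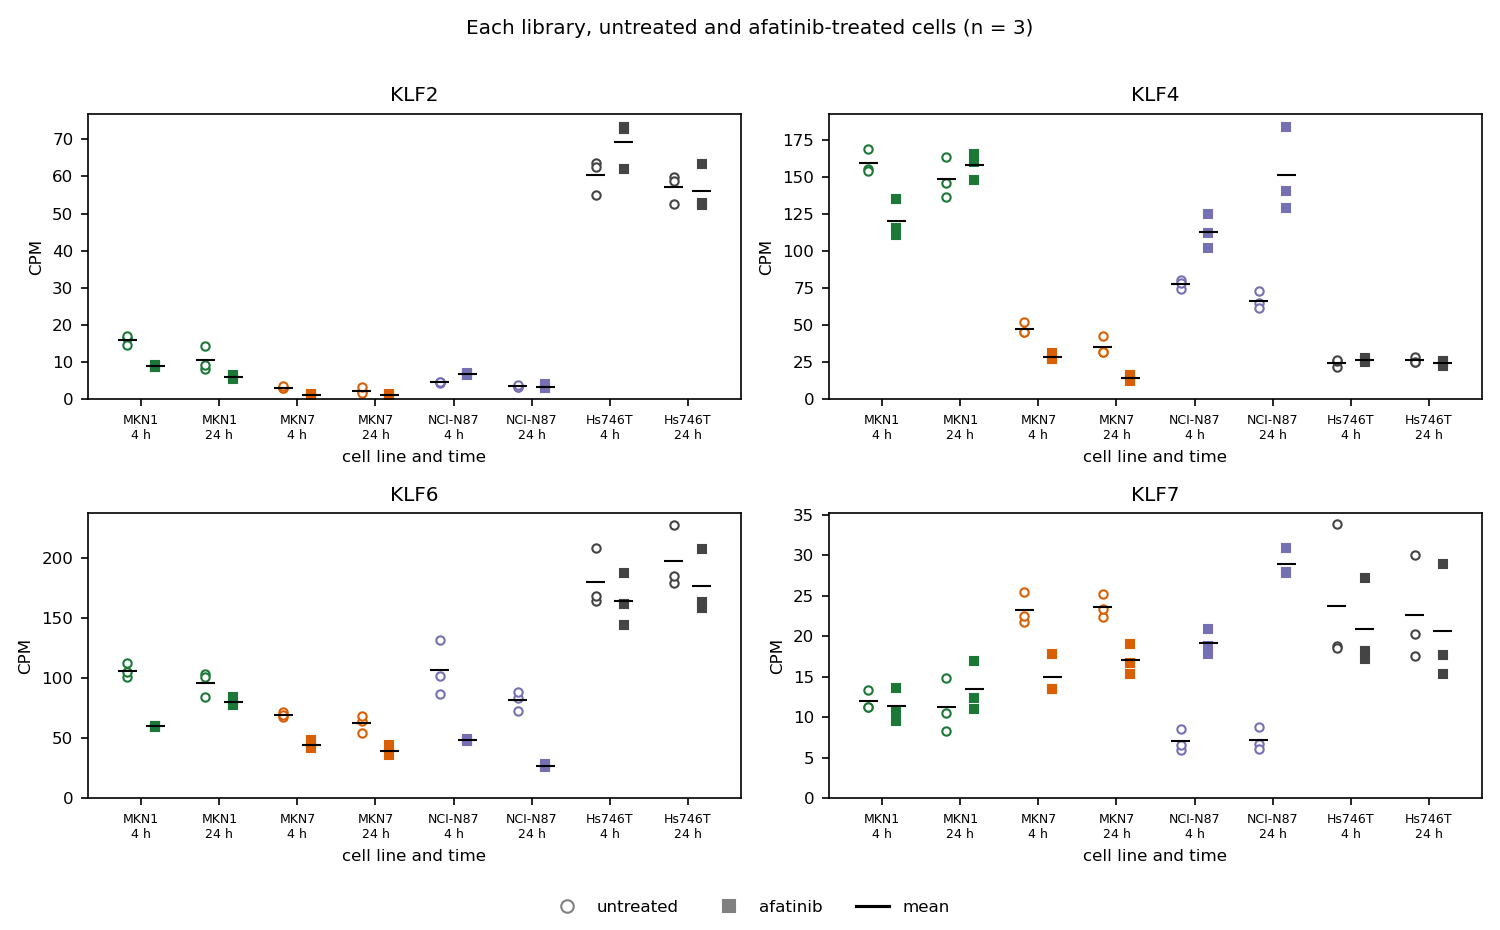
CPM in each library (points; the line is the mean, n = 3) of KLF2, KLF4, KLF6 and KLF7 in untreated and afatinib-treated cells of 4 lines at 4 h and 24 h. KLF7 of NCI-N87 reaches 27.8 to 31.0 CPM with afatinib at 24 h from 6.16 to 8.88 CPM without, and KLF4 falls in MKN7 and rises in NCI-N87.

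In Hs746T cells 0 of 10 KLF genes passed with afatinib at either time with edgeR or DESeq2, where 0.00% of all genes passed in edgeR. The log2FC lay between -0.18 and 0.20 at 4 h and between -0.24 and -0.01 at 24 h, and 1 of the 20 tests had an unadjusted p below 0.05. Of 18667 genes tested, 1371 at 4 h and 330 at 24 h had an unadjusted p below 0.05 in edgeR. In the fit with the replicate block 4 of 10 genes passed at 4 h, where 18.6% of all genes did. They were KLF2 (log2FC 0.20, FDR = 0.0156), KLF5 (-0.17, FDR = 0.00558), KLF6 (-0.13, FDR = 0.0203) and KLF9 (-0.15, FDR = 0.0381). At 24 h the block called KLF6 (-0.16, FDR = 0.0409) and KLF9 (-0.24, FDR = 0.0108), where 0.712% of all genes passed.

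**Figure D4:**
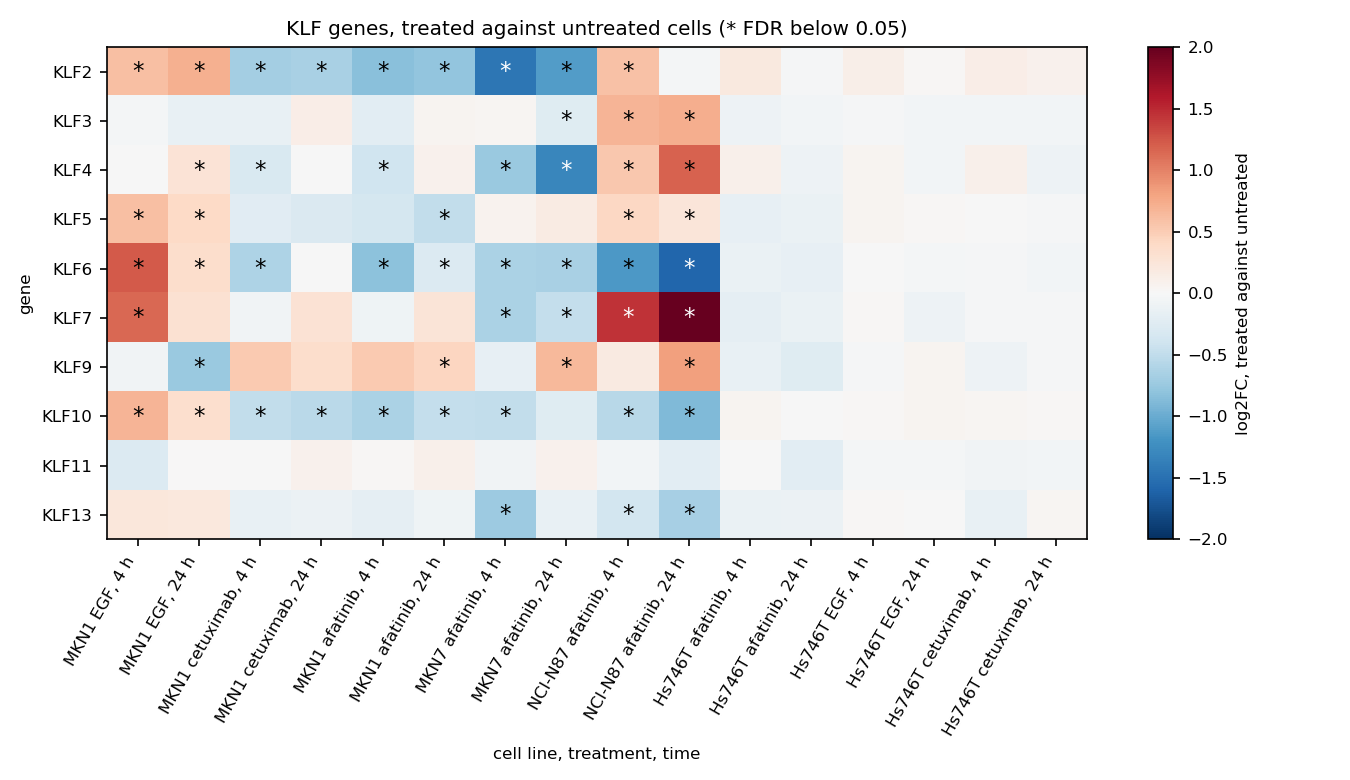
Map of log2FC (color, from -2 to 2) of the 10 KLF genes for EGF, cetuximab and afatinib against untreated cells at 4 h and 24 h, with a star where the edgeR FDR was below 0.05. KLF6 is starred and lower in every afatinib column of MKN1, MKN7 and NCI-N87, KLF7 of NCI-N87 reaches 2.0, and no Hs746T column has a star.

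The afatinib effect was then compared between lines in 1 model over all libraries. Over 6 pairs of lines and both times 42 of 120 tests of a KLF gene passed, and the share of all genes that passed was between 0.372% and 6.74% per pair at 4 h and between 4.41% and 35.1% at 24 h. Between NCI-N87 and MKN7 the largest differences at 4 h were those of KLF7 (2.04 ± 0.42 log2, FDR = 0.00194), KLF2 (1.99 ± 0.26, FDR = 3.9e-08) and KLF4 (1.24 ± 0.15, FDR = 4.32e-09), where 1.01% of all genes passed. At 24 h KLF4 differed by 2.52 ± 0.15 log2 (FDR = 1.63e-25), KLF7 by 2.49 ± 0.42 (FDR = 1.7e-06) and KLF2 by 1.11 ± 0.26 (FDR = 0.000768), where 21.4% of all genes passed. The signs of KLF4 and KLF7 in these lines were opposite at both times, each past the test in its own line.

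Between NCI-N87 and MKN1 the effects differed at 4 h for 5 of 10 genes, KLF2, KLF3, KLF4, KLF5 and KLF7, where 1.83% of all genes passed, and the largest difference was that of KLF7 (1.51 ± 0.42 log2, FDR = 0.0361). That difference had an FDR of 0.0507 without the filter on low counts and of 0.561 and 0.422 without replicates 2 and 3. All groups of this model share 1 estimate of the spread, including those of Hs746T, where KLF7 was higher in replicate 1. The part of the Hs746T libraries in these values was not tested. At 24 h the largest differences were those of KLF7 (1.75 ± 0.42), KLF6 (-1.30 ± 0.19) and KLF4 (1.11 ± 0.15), where 28.0% of all genes passed. MKN7 and MKN1 differed for 0 of 10 genes at 4 h with edgeR and DESeq2, with 4 at an unadjusted p below 0.05, where 1.38% of all genes passed. Of 22832 genes tested, 2098 had an unadjusted p below 0.05 in edgeR. When the replicate block was fitted, 7 of 10 passed, among 10.3%. At 24 h KLF4 differed by -1.41 ± 0.15 (FDR = 2.15e-11) and KLF5 by 0.65 ± 0.17 (FDR = 0.00647), where 7.61% of all genes passed.

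Against Hs746T the effects of NCI-N87 differed for 6 of 10 genes at each time, where 6.74% and 35.1% of all genes passed, and the largest was that of KLF7 at 24 h (2.16 ± 0.42, FDR = 1.34e-05). The effects of MKN7 differed for KLF2 (-1.57 ± 0.25) and KLF4 (-0.76 ± 0.15) at 4 h, where 5.3% of all genes passed, and for KLF2 (-1.10 ± 0.25), KLF4 (-1.21 ± 0.15) and KLF9 (0.88 ± 0.20) at 24 h, where 18.8% did. Those of MKN1 differed for KLF2 at 4 h (-0.98 ± 0.22, FDR = 0.0154) and for KLF2 and KLF9 at 24 h, where 0.372% and 4.41% of all genes passed. The MKN1 count at 4 h was 1, and it was 0 without replicate 1 or 2. At 24 h it was 2, and it was 0 without replicate 2 or 3 and in the fit of the compared groups alone. For NCI-N87 at 4 h the count against Hs746T was 2 rather than 6 without replicate 2 and 3 without replicate 3. Over all pairs 86 of the 120 tests passed with the replicate block, where between 8.72% and 48.6% of all genes did.

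**Figure D5:**
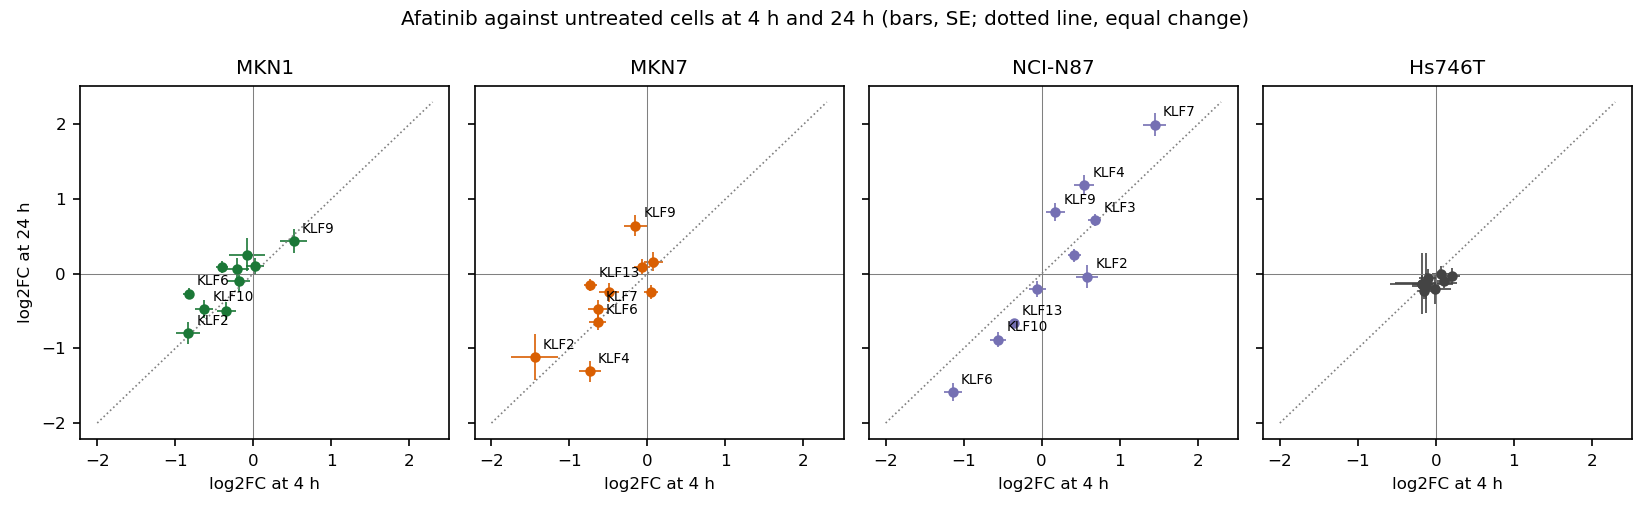
Afatinib effect on the 10 KLF genes at 4 h (x axis, log2FC) and 24 h (y axis, log2FC) in each line, with SE bars and a dotted line of equal change. KLF7 (1.45 and 2.0) and KLF6 (-1.14 and -1.58) of NCI-N87 lie far from 0 at both times, KLF4 of MKN7 falls from -0.74 to -1.31, and the Hs746T genes lie within -0.24 and 0.20.

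Trastuzumab alone changed 0 of 80 gene-by-comparison tests over 4 lines and both times with edgeR, with DESeq2 and with the replicate block, where 0.00% of all genes passed in edgeR. In the edgeR fit 7 of the 80 had an unadjusted p below 0.05, of which 6 were among the 20 tests in NCI-N87. Of 19078 genes tested in NCI-N87, 434 at 4 h and 786 at 24 h had an unadjusted p below 0.05. Trastuzumab + afatinib differed from afatinib alone in 0 of 80 tests with each of these fits, and none had an unadjusted p below 0.05 in any of them. Of all genes, 0.00% passed in edgeR in that comparison in every line at both times. Between 94 and 202 genes per line and time had an unadjusted p below 0.05 there. Against trastuzumab alone, trastuzumab + afatinib changed 33 of 80, 11 higher and 22 lower, against 37 of 80 for afatinib over untreated cells. These comparisons use different controls but the same lines. The share of all genes that passed against trastuzumab was 3.08% and 27.9% in MKN1, 20.5% and 44.4% in MKN7 and 19.7% and 61.8% in NCI-N87 at 4 h and 24 h, and 0.00% in Hs746T. The replicate block called 45 of the 80, and between 10.9% and 71.4% of all genes where its count differed. In NCI-N87 KLF7 was higher than with trastuzumab by 1.94 ± 0.15 and KLF6 lower by 1.14 ± 0.12 log2 at 24 h. In MKN7 KLF4 was lower by 1.18 ± 0.14 at 24 h.

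Afatinib and cetuximab are a kinase inhibitor and an antibody, and they were compared directly in MKN1 cells at their single doses. With edgeR and DESeq2 0 of 10 KLF genes differed at either time, 2 of 20 tests had an unadjusted p below 0.05, and 0.00% and 0.0757% of all genes passed at 4 h and 24 h. Of 19815 genes tested, 262 at 4 h and 1457 at 24 h had an unadjusted p below 0.05 in edgeR. The replicate block called KLF6 lower with afatinib at 24 h (log2FC -0.25, FDR = 0.0267), among 3.52% of all genes. For KLF6 at 4 h the difference was -0.21 log2 with an SE of 0.07, and for KLF2 it was -0.16 with an SE of 0.15. A p that missed the threshold does not show that the agents acted alike.

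Of the other KLF genes KLF16, a repressor, was between 8.88 and 21.7 CPM per kb in untreated cells. Of 7 such genes 4 to 6 could be tested per line. KLF16 fell with afatinib in MKN7 by 1.39 ± 0.10 at 4 h and by 0.88 ± 0.10 log2 at 24 h, and in NCI-N87 by 0.95 ± 0.14 and by 1.22 ± 0.14. It rose with EGF in MKN1 at 24 h (0.78 ± 0.11). KLF12, an AP-2α repressor, rose with afatinib at 4 h in MKN7 (0.56 ± 0.15) and NCI-N87 (0.43 ± 0.10). In the SP family, whose members share the zinc finger type, SP1 rose with afatinib in NCI-N87 by 0.39 ± 0.09 at 4 h and 0.43 ± 0.09 at 24 h. SP5 fell with EGF in MKN1 at 4 h (-1.09 ± 0.15). Of the SP genes 2 of 7 passed with afatinib in MKN7 at 4 h, both higher, and 1 of 6 in NCI-N87, where 22.2% and 18.2% of all genes passed, so that these counts are near the background.

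Partners of the KLF proteins were described by lists. Of 10 KLF cofactors 5 were lower and 0 higher with afatinib in MKN1 at 24 h (median log2FC -0.17, against 0.01 over all genes), where 25.6% of all genes passed. In NCI-N87 at 24 h 2 were higher and 4 lower, a share near the 62.5% of all genes. FHL3, a LIM-domain coactivator, fell with afatinib in MKN1 (-0.38 ± 0.10 at 4 h), MKN7 (-0.50 ± 0.12 at 4 h) and NCI-N87 (-1.07 ± 0.12 at 24 h), and it rose with EGF in MKN1 (0.80 ± 0.10 at 24 h). CTBP2, a corepressor bound by KLF3, fell by 0.78 ± 0.07 in NCI-N87 at 24 h. Of 8 genes of ubiquitin ligases 1 was higher and 5 were lower with afatinib in MKN7 at 4 h, where 22.2% of all genes passed. FBXO32, known as atrogin-1, rose with afatinib in MKN7 (1.58 ± 0.16 at 4 h) and NCI-N87 (2.45 ± 0.18 at 24 h). WWP1, a ligase known to act on KLF5, fell by 0.38 ± 0.07 in NCI-N87 at 24 h.

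The kinase ERK5 and the MEF2 factors are known to drive KLF2 and KLF4 transcription. Of 8 genes of this axis 4 were higher and 1 was lower with afatinib in NCI-N87 at 4 h, where 18.2% of all genes passed. At 24 h 4 were higher and 0 lower, below the 62.5% of all genes. HDAC5, a repressor of MEF2 factors, rose in NCI-N87 by 1.23 ± 0.10 at 4 h and by 1.85 ± 0.10 at 24 h, and in MKN7 by 0.73 ± 0.13 and 1.26 ± 0.12. In MKN1 at 4 h 0 of 8 passed with afatinib in edgeR, where 3.68% of all genes did.

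KLF target genes moved in both directions. Of the 23 20 were tested in NCI-N87, and 3 were higher and 8 were lower after 24 h with afatinib, with a median log2FC of -0.27 against 0.03 over all genes, and 62.5% of all genes passed. In MKN7 at 24 h 5 were higher and 7 were lower of 21 tested, where 51.6% of all genes passed. Neither count stands far from its background. CCND1 (cyclin D1) fell with afatinib at 4 h in MKN1 (-0.86 ± 0.20), MKN7 (-1.67 ± 0.13) and NCI-N87 (-1.52 ± 0.17). NOS3, the endothelial nitric oxide synthase, rose at 24 h in MKN7 (2.34 ± 0.23) and NCI-N87 (2.60 ± 0.39). THBD (thrombomodulin) fell at 4 h in MKN1 (-0.95 ± 0.12) and MKN7 (-2.07 ± 0.22). With EGF in MKN1 at 4 h 4 of 20 rose and 1 fell, where 6.82% of all genes passed, led by LAMA3 (2.07 ± 0.25) and CDKN1A (1.75 ± 0.19).

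ERK reporter genes, whose RNA follows ERK activity, moved beside these results. With afatinib 7 of 7 tested were lower at each time in MKN1, MKN7 and NCI-N87, with a median log2FC between -2.40 and -4.42, and 0 of 8 passed in Hs746T in edgeR. At 4 h and 24 h 3.68% and 25.6% of all genes passed in MKN1, 22.2% and 51.6% in MKN7 and 18.2% and 62.5% in NCI-N87. With EGF in MKN1 5 of 7 rose at each time, where 6.82% and 35.8% of all genes passed. The part of ERK activity in the KLF values was not tested.

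Genes with the pattern most like that of each KLF gene were found by the mean over 4 lines of the correlation across conditions, with 14 conditions in MKN1 and Hs746T and 8 in MKN7 and NCI-N87. The conditions share their replicate numbers and time points, and the correlations are descriptions. KLF10 was most like PPP1R18 (mean r = 0.96), CTGF (0.96) and HBEGF (0.96). KLF9 was most like AHNAK2 (0.96), SLC35B3 (0.96) and LINC02340 (0.95). KLF6 was most like EFNB2 (0.95), PTPN12 (0.94) and SPRY2 (0.92), of which SPRY2 is an inhibitor of receptor tyrosine kinase signalling. KLF2 was most like DNAJB6 (0.89), RHEBL1 (0.87) and SIAH2 (0.85), and KLF13 was most like TOR4A (0.90), B3GNT3 (0.84) and PITPNM1 (0.84).

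For KLF4 the closest genes were S100A5 (0.74), BCAR3 (0.68) and BRSK1 (0.67), the lowest values of the 10. For KLF3 they were CDC42SE2 (0.86), ADAMTS6 (0.83) and FOXP1 (0.83), for KLF5 C16orf45 (0.82), CAMK4 (0.81) and RTL5 (0.78), for KLF7 PDCD1LG2 (0.78), ZFP36L2 (0.77) and CFLAR (0.77), and for KLF11 SEC24C (0.85), ADCY9 (0.85) and MINK1 (0.84). Among the members themselves KLF9 and KLF10 were the most opposed pair, with a mean r of -0.76, between -0.46 in MKN7 and -0.96 in Hs746T. In Hs746T no KLF gene passed in a treatment comparison with edgeR, while KLF9 changed between 4 h and 24 h in untreated cells. The part of time in this correlation was not tested.

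KLF11 passed in no treatment comparison of any line in the edgeR fit. The ratio of its highest to its lowest group mean, over all treatments and both times, was 1.14 in MKN7, 1.16 in NCI-N87, 1.35 in Hs746T and 1.78 in MKN1. The largest such ratio was that of KLF6 in MKN1 (4.16) and in NCI-N87 (4.77), KLF4 in MKN7 (3.33) and KLF9 in Hs746T (2.05). These ratios do not separate time from treatment. KLF9 of Hs746T was lowest with afatinib at 4 h and highest with EGF at 24 h, and it also rose between these times in untreated cells. KLF3 overlaps the antisense gene KLF3-AS1. Over all libraries KLF3-AS1 had at most 169 counts and KLF3 at most 7518, and reads of the pair cannot be told apart without strand.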

How the data were processed

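The members and the gene lists were chosen with earlier results of these data known. RNA was captured with oligo-dT beads, made into directional libraries and sequenced as read pairs. The authors deposited raw counts per Ensembl gene, 1 file for each library, and the values were not normalized before deposit. The submitters' processing notes name Trim Galore, STAR and hg38, while their versions, the counting program, its strand setting and the annotation are not given in the sources used here. Symbols, coordinates and exon lengths were taken from GENCODE 29.

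Counts were tested with the edgeR (4.0.16) quasi-likelihood test in R 4.3.3, with TMM scaling and filterByExpr (minimum count 10, minimum total count 15). Each line was fitted with 1 mean per treatment and time, and all lines together for comparisons between lines. P-values were adjusted by Benjamini-Hochberg over all genes tested, and a gene was called changed at an FDR below 0.05. The study's limit of a log2FC beyond 1 was not required. CPM used TMM-adjusted library sizes of the genes that passed the filter, from the fit of the line for values per library and from the fit of all lines for levels per length and markers. Results were recomputed with DESeq2 (1.42.0), with a block for the replicate number, from the compared groups only, with scaling to library size, without the filter, with a filter that required 10 counts in each library, and 3 times with 1 replicate number left out. The scripts were tested on simulated counts. All members were described in every comparison. From each other list at most 2 genes were named per comparison, those with the largest absolute log2FC at an FDR below 0.05, and 3 genes per member were named by likeness.

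Total counts ranged from 25832557 to 69434151 per library. A count of 3, the limit that a count of 0 allows, corresponded to between 0.0432 and 0.116 CPM of these totals, which covers counting error only.

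Whether replicate numbers pair the libraries was checked by the correlation of their deviations from the group means. In 55 of 58 comparisons of a pair of groups all 3 correlations of same-numbered libraries were over 0.1, with a mean of 0.370 over all and a lowest value of -0.0184. The pairing comes from these data, since the labels do not say what a number marks.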

Additional observations from a re-analysis of the deposited data

Results flagged for a closer look

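In 20 tests that passed, afatinib effects of a pair of lines were more than 1 log2 unit apart (edgeR, FDR below 0.05, difference of log2FC). Between NCI-N87 and MKN7 these were KLF7 (2.04), KLF2 (1.99) and KLF4 (1.24) at 4 h and KLF4 (2.52), KLF7 (2.49) and KLF2 (1.11) at 24 h. Between NCI-N87 and MKN1 they were KLF7 (1.51) and KLF2 (1.40) at 4 h and KLF7 (1.75), KLF6 (-1.30) and KLF4 (1.11) at 24 h. Between NCI-N87 and Hs746T they were KLF7 (1.66) at 4 h and KLF7 (2.16), KLF6 (-1.39), KLF4 (1.31) and KLF9 (1.09) at 24 h. Between MKN7 and MKN1 it was KLF4 (-1.41) at 24 h. Between MKN7 and Hs746T they were KLF2 (-1.57) at 4 h and KLF4 (-1.21) and KLF2 (-1.10) at 24 h. A positive value means a higher log2FC in the line named first.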

How the results depend on the processing

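Of 740 tests of a KLF gene, none changed direction in a called result under any of the 9 alternatives. The call was the same in 708 with only the groups compared, 725 with DESeq2, 714 with library size alone, 725 without the filter and 726 with the filter of at least 10 counts. The replicate block kept all calls and added 104. Counts of calls moved by over 1.5 times as follows, and the cause was not tested. With only the groups compared, cetuximab changed 3 rather than 6, EGF + cetuximab against EGF 0 rather than 1, and untreated cells between times 3 rather than 6. For EGF + cetuximab against EGF, DESeq2 gave 3 and the filter of at least 10 counts gave 2. With the replicate block the counts were 11 for cetuximab, 7 for EGF + cetuximab against EGF, 23 rather than 12 for differences between 24 h and 4 h, 1 rather than 0 for afatinib against cetuximab, 11 for untreated cells between times and 86 rather than 42 for afatinib effects between lines. A block shared by times or lines was chosen after seeing the data for untreated cells. Leaving out each replicate number gave between 6 and 11 for EGF (11 in all libraries), 2 and 4 for cetuximab, 0 and 1 for EGF + cetuximab against EGF, 30 and 33 for afatinib (37), 4 and 7 for differences between times, 3 and 6 for untreated cells between times, 32 and 38 for effects between lines and 53 and 54 for untreated lines (54). Fits with fewer libraries often called fewer genes of any kind, so that a lost call is not particular to the KLF genes. With EGF in MKN1 at 24 h, 35.8% of all genes passed in all libraries and 17.8% without replicate 1. In 3 comparisons of MKN1 at 24 h (trastuzumab + afatinib against trastuzumab and against afatinib, afatinib against cetuximab) not every pair of same-numbered libraries correlated above 0.1, and their block calls are a hint from the data. KLF2 of MKN7, at up to 3.60 CPM, had an SE of 0.31 log2 in the afatinib comparisons.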
